A study of Arabidopsis thaliana with 9 samples.

Results

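The libraries labelled RNAi-ASCO were compared with the wild-type (WT) libraries of the same series, across all gene models, with attention to functional groups of genes. Members were chosen by the sample titles: 6 of the 9 libraries, 3 labelled RNAi-ASCO and 3 labelled WT. All were made from polyadenylated RNA of Arabidopsis thaliana seedlings grown in vitro. Per the labels, the RNAi-ASCO genotype is a knock-down of AT1G67105 by small interfering RNA, and WT is the wild type. The other 3 libraries of the series, 35S-ASCO, carry an overexpression allele of AT1G67105 that the labels also call a promoter trap, and are labelled 16 days old and Boyes stage 1.04. RNAi-ASCO replicates 1 and 2 are labelled 4 days with no stage, whereas RNAi-ASCO replicate 3 and all 3 WT libraries are labelled 16 days and stage 1.04. The promoter of the RNAi construct, the number of independent lines, the number of plants per sample and the hour of harvest are not given in the labels.

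ASCO is a long noncoding RNA that binds nuclear speckle RNA-binding proteins and takes part in the regulation of alternative splicing, which counts per gene do not show. Several processes that came up in the comparison share a daily rhythm in Arabidopsis seedlings. The circadian clock is a loop of transcription factors in which morning genes (CCA1, LHY) and genes of the day and evening (the PRR family, GI, and the evening complex of ELF3, ELF4 and LUX) repress each other in turn. Light-harvesting genes, starch breakdown genes and the glucosinolate pathway, which makes sulfur-containing defence compounds typical of the cabbage family, are among the known outputs of light and clock.

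The libraries labelled RNAi-ASCO held between 33971623 and 58355932 counted read pairs, those of WT between 27044702 and 91794393, and 3 pairs correspond to between 0.0318 and 0.110 CPM (read pairs scaled to library size by TMM). Of 33602 gene models, 22719 had enough pairs to be tested. Levels of different genes are not compared with each other, since CPM is not corrected for length. In RNA from whole seedlings, fewer cells of a type and less RNA per cell cannot be told apart. P-values measure the spread between libraries that the series design calls biological replicates. Of 21 root markers tested, 1 fell (EXPA7, a root hair expansin, log2 fold change -0.47) and 0 rose (4.76% called, against 11.8% of all genes). The summed level of the root markers was 272.9, 302.5 and 289.1 CPM in the libraries labelled RNAi-ASCO, against 290.1, 282.1 and 292.2 CPM in WT. Of 20 leaf and stomatal lineage markers, 1 rose (the meristem factor STM, log2 fold change 0.52) and 0 fell (5.0% called). Their sums were 418.6, 408.9 and 368.0 CPM in the libraries labelled RNAi-ASCO, against 402.1, 352.8 and 378.5 CPM in WT. Of 12 genes of seed reserves and their mobilisation, 8 had too few pairs to be tested, among them the cruciferins and 2S albumins with at most 6 pairs in any of the 6 libraries. Of the 4 tested, 3 had a positive fold change, with a median of 0.66 on the log2 scale. The oleosin OLEO2 (1.91) and the glyoxylate cycle enzymes ICL (1.08) and MLS (-0.30) did not pass, and PCK1 (0.24), an enzyme that makes sugar from stored oil, rose with an edgeR adjusted p of 0.0498 and lost its call in all 6 fits that left out a library. The median log2 ratio of these 4 to the WT mean was 0.84, 0.471 and 0.432 in the libraries labelled RNAi-ASCO, the first and second being those labelled 4 days. In the WT libraries it was 0.196, 0.025 and -0.212. The same ratio from the mean levels of 35S-ASCO, labelled 16 days, was 0.477.

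AT1G67105 itself (a noncoding RNA gene on chromosome 1, chr1:25057479-25058264, plus strand in TAIR10.1) had 568, 892 and 1328 pairs in the libraries labelled RNAi-ASCO, against 178, 344 and 143 in WT. Scaled, it had 16.9, 19.5 and 22.9 CPM in the libraries labelled RNAi-ASCO, against 6.54, 3.65 and 2.48 CPM in WT (log2 fold change 2.33, SE 0.25, edgeR adjusted p = 0.000867). Each of the 3 libraries labelled RNAi-ASCO was above the highest WT value, so the gene went against the knock-down label. Gene counts cannot tell transcripts of the locus from those of a construct that carries its sequence. Every direction below is that of the libraries labelled RNAi-ASCO, not of a shown loss of ASCO. Among the 6 annotated genes on each side, 8 were tested and the next gene downstream, CYP735A2, was singled out after its values were seen. CYP735A2, a cytokinin hydroxylase, had 3.15, 1.97 and 2.58 CPM in the libraries labelled RNAi-ASCO, against 4.04, 6.24 and 10.09 CPM in WT (log2 fold change -1.43, SE 0.31, edgeR adjusted p = 0.0184). WT replicate 3 was the highest of its group, and no value overlapped between the groups. The other neighbour that passed the threshold was DIN9, a sugar-responsive phosphomannose isomerase, with 3.77, 4.04 and 3.62 CPM in the libraries labelled RNAi-ASCO, against 2.497, 2.58 and 3.06 CPM in WT (log2 fold change 0.48, SE 0.12, edgeR adjusted p = 0.031). CYP735A2 lost the call in 1 of the 6 leave-one-out fits (highest edgeR adjusted p = 0.081, without RNAi-ASCO replicate 2) and DIN9 in 5 (highest edgeR adjusted p = 0.121, without RNAi-ASCO replicate 2).

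At an adjusted p under 0.05, 2677 genes changed (11.8% of those tested), of which 1582 (6.96%) were higher and 1095 (4.82%) lower in the libraries labelled RNAi-ASCO. With upper-quartile scaling the split was more even, 1421 higher and 1308 lower. Most changes were small, with a median absolute log2 fold change of 0.416 among the genes called, and 6239 genes had an unadjusted p under 0.05. Calls depended on single libraries: the number was 1150 without RNAi-ASCO replicate 1, 993 without RNAi-ASCO replicate 2 and 1368 without WT replicate 1. The 3 values of each group did not overlap for 7367 genes (32.4%). Across 56 gene groups, the share of members past the threshold ran between 0% and 85.7%. The groups furthest above the 11.8% of all genes were aliphatic glucosinolate synthesis (85.7%), the circadian clock (60.7%), light signalling (55.2%) and the nuclear photosystem and antenna proteins (44.4%), and in these almost every call was an increase. Of 115 genes that the naming rule picked, 22 overlap an annotated gene on the opposite strand (APR1, CO, ASN1, CAO, LHB1B2, LHCB3, LHCB6, AT4G36150, LYM2 and EBF2 among them), and whether strand was used in counting is not stated. A gene may belong to several groups: GRP7 and GRP8 count both as clock genes and as splicing regulators, and MYB51 and ASN1 also stand in more than 1 group. A single value in parentheses after a gene is its log2 fold change.

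**Figure D1:**
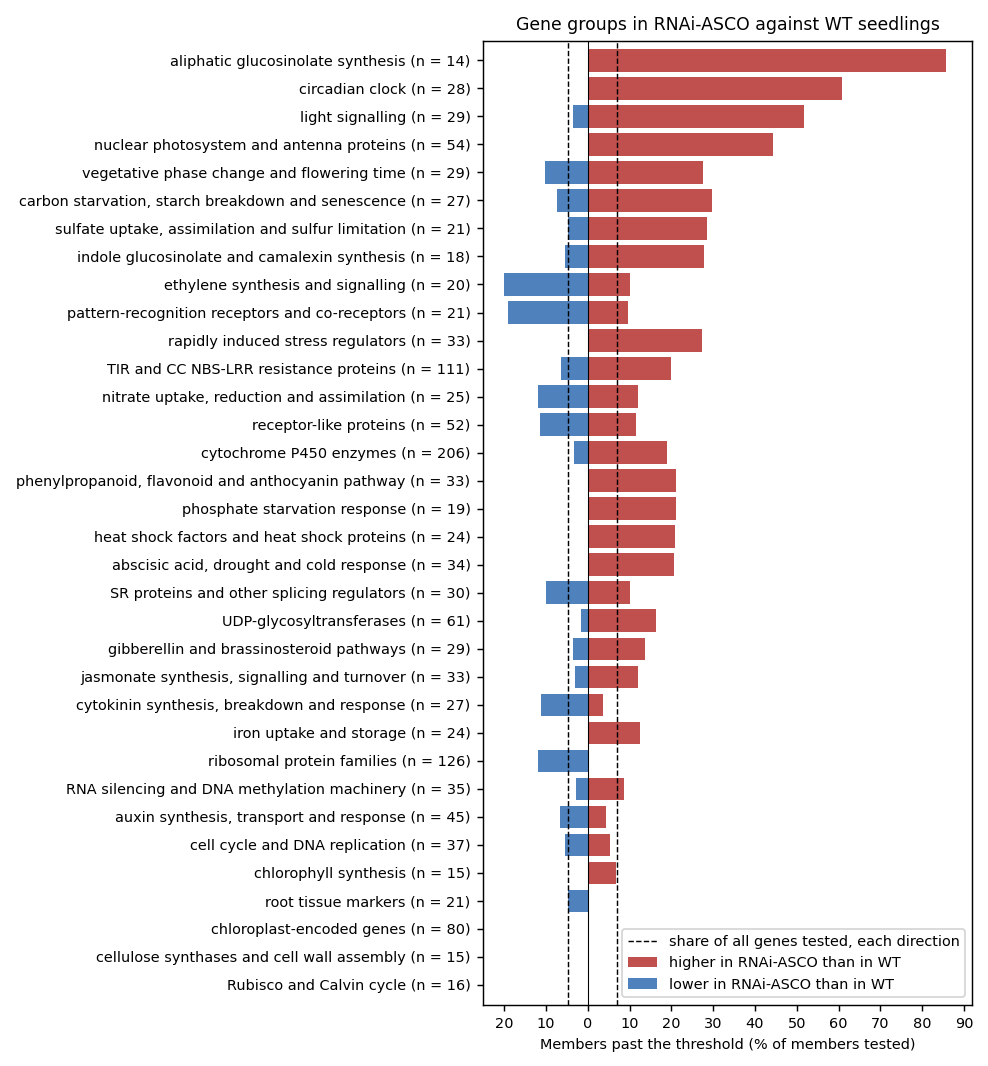
Share of tested members past the threshold in 34 gene groups, as % of members tested, with members higher in the libraries labelled RNAi-ASCO to the right of 0 and members lower in them to the left. Dashed lines mark the shares over all genes tested (6.96% higher and 4.82% lower), and aliphatic glucosinolate synthesis, the clock, light signalling and the photosystem genes extend furthest to the right.

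Clock genes were higher together. Of 28 clock genes, all tested, 17 rose and 0 fell in the libraries labelled RNAi-ASCO, with a median log2 fold change of 0.59 (all genes -0.006). GI, a nuclear protein that links the clock to flowering, had 69.0, 63.6 and 50.5 CPM in the libraries labelled RNAi-ASCO, against 13.7, 10.2 and 10.9 CPM in WT (log2 fold change 2.41, SE 0.17, edgeR adjusted p = 0.000111). The lowest of the libraries labelled RNAi-ASCO was replicate 3, still far above the highest WT library. PRR7, a pseudo-response regulator that represses the morning genes, had 56.4, 50.7 and 45.9 CPM in the libraries labelled RNAi-ASCO, against 20.1, 16.1 and 19.1 CPM in WT (log2 fold change 1.47, SE 0.17, edgeR adjusted p = 0.0012). PRR5, of the same family, had 43.9, 44.4 and 25.1 CPM in the libraries labelled RNAi-ASCO, against 12.5, 11.04 and 14.1 CPM in WT (log2 fold change 1.59, SE 0.27, edgeR adjusted p = 0.0058). In both genes the groups were apart, and in PRR5 the library labelled 16 days stood between the libraries labelled 4 days and WT. The evening complex was higher in part. ELF4 had 67.8, 62.4 and 56.1 CPM in the libraries labelled RNAi-ASCO, against 38.4, 35.6 and 33.1 CPM in WT (log2 fold change 0.80, SE 0.08, edgeR adjusted p = 0.000618). LUX, its DNA-binding partner, had 54.2, 52.4 and 46.7 CPM in the libraries labelled RNAi-ASCO, against 34.0, 27.9 and 25.5 CPM in WT (log2 fold change 0.82, SE 0.10, edgeR adjusted p = 0.00142). ELF3, the scaffold of the complex, had 135, 139 and 138 CPM in the libraries labelled RNAi-ASCO, against 132, 133 and 127 CPM in WT (log2 fold change 0.07, SE 0.044, edgeR adjusted p = 0.338). ELF4 and LUX rose without overlap between groups, whereas the fold change of ELF3 was small and did not pass. TOC1, an evening repressor, rose by a smaller amount and in all libraries alike, with 251, 249 and 251 CPM in the libraries labelled RNAi-ASCO, against 193, 192 and 204 CPM in WT (log2 fold change 0.35, SE 0.059, edgeR adjusted p = 0.00592).

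Genes that act on the output of the clock showed the same direction. CDF1, CDF2 and CDF3 are DOF factors that repress CO, a flowering activator. CDF1 had 6.30, 5.68 and 3.36 CPM in the libraries labelled RNAi-ASCO, against 1.58, 1.67 and 2.02 CPM in WT (log2 fold change 1.52, SE 0.23, edgeR adjusted p = 0.00361). CDF3 had 8.68, 8.34 and 4.57 CPM in the libraries labelled RNAi-ASCO, against 2.09, 2.07 and 1.04 CPM in WT (log2 fold change 2.06, SE 0.34, edgeR adjusted p = 0.00585). CDF2 had a log2 fold change of 0.78. FKF1, the blue-light F-box protein that targets the CDF proteins for breakdown, had 54.98, 56.7 and 36.0 CPM in the libraries labelled RNAi-ASCO, against 23.8, 21.9 and 17.8 CPM in WT (log2 fold change 1.22, SE 0.21, edgeR adjusted p = 0.00753). In CDF1, CDF3 and FKF1 the library labelled 16 days was the lowest of its group, and none of the groups overlapped. The transcriptional coactivators LNK1 (log2 fold change 1.66) and LNK2 (0.58), the MYB-like factors RVE7 (1.65) and RVE2 (0.46), PRR3 (0.44) and the RNA-binding proteins GRP7 (0.54) and GRP8 (0.59) also rose. The morning genes did not pass the threshold. LHY had 1.49, 1.73 and 1.86 CPM in the libraries labelled RNAi-ASCO, against 1.8, 1.75 and 1.702 CPM in WT (log2 fold change -0.04, SE 0.22, edgeR adjusted p = 0.936). CCA1 had 1.52, 1.83 and 1.40 CPM in the libraries labelled RNAi-ASCO, against 0.955, 0.657 and 0.643 CPM in WT (log2 fold change 1.12, SE 0.50, edgeR adjusted p = 0.175), with the groups apart but few pairs. RVE8 and RVE4, activators of evening genes, had log2 fold changes of -0.06 and -0.10. PRR9 (log2 fold change 1.74), RVE1 (0.43), ZTL (0.16), LKP2 (0.21), BOA (-0.15) and CHE (-0.21) did not pass either. Leaving out any 1 library left between 12 and 16 clock genes called, all higher. The labels give no hour of harvest, so its part in the levels of these rhythmic genes was not tested. CDF2 and GRP7 lost the call in 1 of the 6 leave-one-out fits, PRR3 in 2, RVE2 in 5 and LNK2 in 6.

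**Figure D2:**
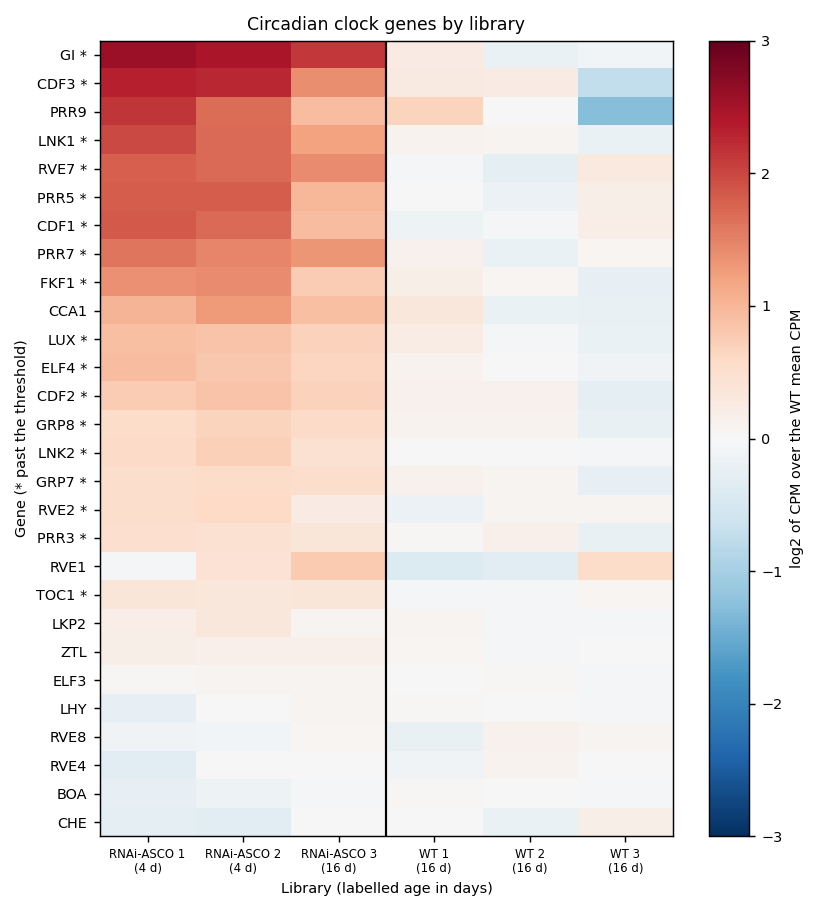
Level of 28 clock genes in each of the 6 libraries as log2 of CPM over the WT mean CPM (colour), with genes ordered by fold change and those past the threshold marked with an asterisk. GI is the gene with the largest log2 fold change (2.41), and the 4 genes with the next calls down, CDF3, LNK1, RVE7 and PRR5, are paler in the library labelled 16 days than in those labelled 4 days.

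The 250 bases before the annotated start of each tested nuclear gene (22533 windows, RefSeq TAIR10.1) were searched for the evening element, AAAATATCT, and for the G-box, CACGTG, on both strands. Of the 17 clock genes that rose, 7 (41.2%) held the evening element, against 8 of all 28 clock genes (28.6%) and 2.41% of all windows. The element was in 4.93% of the windows of all genes that rose and in 2.19% of those that fell. A G-box was in 4 of the 17 (23.5%), fewer by share than in all 28 clock genes (9, or 32.1%), against 7.11% of all windows. It was in 6 of the 24 photosystem genes that rose (25%) and in 20.4% of all 54. None of the 14 aliphatic glucosinolate windows held the evening element. These are matches of letters, not shown binding sites. The 4 windows below belong to the clock genes that rose with the smallest p among the 7 with the element, chosen after the motif search. Capitals mark the evening element and, in LUX, also the G-box.
LUX (AT3G46640, chr3:17182792-17183041, plus strand): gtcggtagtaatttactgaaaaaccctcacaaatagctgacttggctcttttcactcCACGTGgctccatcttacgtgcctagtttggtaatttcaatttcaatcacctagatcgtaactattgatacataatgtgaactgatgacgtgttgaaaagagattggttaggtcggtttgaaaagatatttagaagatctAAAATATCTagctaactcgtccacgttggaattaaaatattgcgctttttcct
RVE7 (AT1G18330, chr1:6308244-6308493, minus strand): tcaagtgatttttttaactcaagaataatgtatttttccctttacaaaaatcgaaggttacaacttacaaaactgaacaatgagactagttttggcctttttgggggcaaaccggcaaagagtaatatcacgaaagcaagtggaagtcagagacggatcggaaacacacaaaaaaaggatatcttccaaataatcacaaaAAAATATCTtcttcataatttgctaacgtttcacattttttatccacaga
PRR5 (AT5G24470, chr5:8358547-8358796, minus strand): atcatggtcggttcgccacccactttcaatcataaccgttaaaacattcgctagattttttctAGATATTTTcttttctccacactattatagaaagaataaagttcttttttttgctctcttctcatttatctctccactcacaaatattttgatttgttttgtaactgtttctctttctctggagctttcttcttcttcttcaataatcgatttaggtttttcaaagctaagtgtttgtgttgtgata
TOC1 (AT5G61380, chr5:24674713-24674962, plus strand): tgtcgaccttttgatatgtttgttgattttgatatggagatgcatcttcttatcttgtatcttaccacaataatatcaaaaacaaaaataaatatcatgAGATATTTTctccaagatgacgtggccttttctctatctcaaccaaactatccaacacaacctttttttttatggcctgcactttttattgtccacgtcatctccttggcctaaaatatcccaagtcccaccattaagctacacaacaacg
In LUX and RVE7 the element lies near the gene start, and in PRR5 and TOC1 it lies further upstream. LUX rose by a log2 fold change of 0.82, RVE7 by 1.65, PRR5 by 1.59 and TOC1 by 0.35.

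Light signalling genes were the next group. Of 29 tested, 15 rose and 1 fell, with a median log2 fold change of 0.21. PIF4, a growth-promoting factor that phytochromes inactivate, had 53.4, 49.3 and 46.3 CPM in the libraries labelled RNAi-ASCO, against 20.7, 20.5 and 20.1 CPM in WT (log2 fold change 1.28, SE 0.14, edgeR adjusted p = 0.000867). Its relatives PIF5 (log2 fold change 0.90) and PIF7 (0.72) also rose, as did HFR1 (0.62), which blocks PIF proteins. SPA1, part of the COP1 ubiquitin ligase that degrades light-response factors, had 101, 92.1 and 86.7 CPM in the libraries labelled RNAi-ASCO, against 53.9, 57.2 and 58.2 CPM in WT (log2 fold change 0.72, SE 0.085, edgeR adjusted p = 0.0012). HY5, a factor that this ligase degrades, had 16.6, 16.1 and 13.8 CPM in the libraries labelled RNAi-ASCO, against 10.4, 10.9 and 10.8 CPM in WT (log2 fold change 0.53, SE 0.076, edgeR adjusted p = 0.00314). Factors that promote and that restrain light responses were thus higher side by side, with no overlap between groups. The photoreceptor PHYA was the exception and fell, with 103, 109 and 111 CPM in the libraries labelled RNAi-ASCO, against 139, 135 and 138 CPM in WT (log2 fold change -0.35, SE 0.051, edgeR adjusted p = 0.00321). The other phytochromes PHYB, PHYC and PHYE rose by log2 fold changes of 0.21, 0.15 and 0.20. ELIP1, an early light-induced protein of the thylakoid, had 5.59, 4.28 and 3.36 CPM in the libraries labelled RNAi-ASCO, against 1.91, 1.71 and 1.11 CPM in WT (log2 fold change 1.49, SE 0.23, edgeR adjusted p = 0.00377). Called light genes numbered 10 without RNAi-ASCO replicate 1 or WT replicate 1 and 9 without RNAi-ASCO replicate 2. PHYE lost the call in 4 of the 6 leave-one-out fits, PHYB in 5 and PHYC in 6.

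Nuclear genes for photosystem and antenna proteins followed. Of 54 tested, 24 rose, 0 fell and 49 had a positive fold change, with a median log2 fold change of 0.26. LHB1B2, a major antenna protein of photosystem II, had 3691, 3679.8 and 3549 CPM in the libraries labelled RNAi-ASCO, against 2321, 1680.2 and 1673 CPM in WT (log2 fold change 0.94, SE 0.16, edgeR adjusted p = 0.00653). LHCB3 had 1141, 1170.3 and 1003 CPM in the libraries labelled RNAi-ASCO, against 691, 468 and 509.8 CPM in WT (log2 fold change 0.99, SE 0.17, edgeR adjusted p = 0.00777). LHCB6 had 1192, 1119 and 1042 CPM in the libraries labelled RNAi-ASCO, against 833, 608 and 604 CPM in WT (log2 fold change 0.71, SE 0.13, edgeR adjusted p = 0.00785). WT replicate 1 was the highest of the WT libraries in all 3, and none of the libraries labelled RNAi-ASCO reached down to it. The antenna genes LHCB2.1 and LHCB2.2, near-identical copies whose pairs may be divided between them, had log2 fold changes of 1.42 and 1.33, and 17.3% of the 50-base windows of LHB1B2 occur elsewhere in the genome. Increases in photosystem I subunits such as PSAD-1 (log2 fold change 0.25) were smaller than in LHCB3 or LHCB6. The number called was 10 without RNAi-ASCO replicate 1, 7 without RNAi-ASCO replicate 2 and 13 without WT replicate 3. Of 15 chlorophyll synthesis genes, 1 rose and 0 fell (6.67% called), or 1 and 2 without WT replicate 2. CAO, which makes chlorophyll b, had 86.4, 92.2 and 78.0 CPM in the libraries labelled RNAi-ASCO, against 49.6, 46.0 and 41.3 CPM in WT (log2 fold change 0.91, SE 0.12, edgeR adjusted p = 0.0018). None of the 16 Rubisco and Calvin cycle genes passed (1 without WT replicate 3), with a median log2 fold change of 0.022. None of the 80 chloroplast-encoded genes tested passed either (2 without WT replicate 2), and 20 of them had a positive fold change. Poly(A) selection leaves few chloroplast transcripts, at most 0.0552% of pairs in these 6 libraries. LHCB2.2 lost the call in 1 of the 6 leave-one-out fits, LHCB2.1 in 2 and PSAD-1 in 5.

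**Figure D3:**
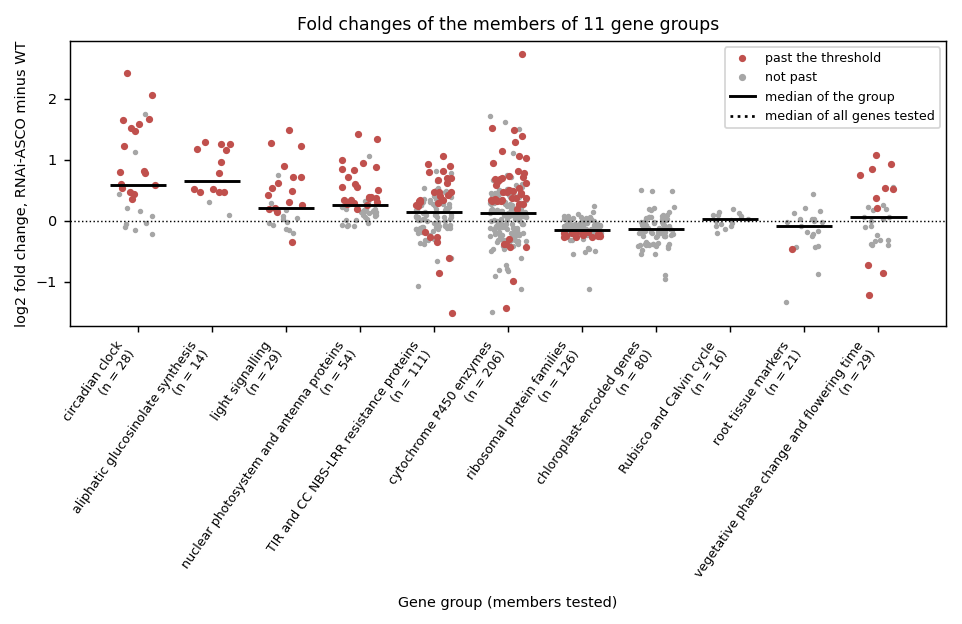
Log2 fold change (libraries labelled RNAi-ASCO minus WT) of each tested member of 11 gene groups, with members past the threshold in red, a bar at each group's median and a dotted line at the median of all genes. The medians of the clock (0.589) and aliphatic glucosinolate groups (0.647) lie well above the line, that of the ribosomal protein families (-0.148) lies below it, and Calvin cycle genes sit close to it.

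Aliphatic glucosinolate synthesis, which builds defence compounds from methionine, was higher along nearly its whole length. Of 14 genes, all tested, 12 rose, 0 fell and all 14 had a positive fold change, with a median of 0.65 on the log2 scale. The pathway is switched on by MYB regulators. MYB28 had 81.9, 86.3 and 69.0 CPM in the libraries labelled RNAi-ASCO, against 51.5, 62.8 and 57.2 CPM in WT (log2 fold change 0.46, SE 0.11, edgeR adjusted p = 0.0274). MYB29 had 17.1, 18.1 and 14.2 CPM in the libraries labelled RNAi-ASCO, against 6.87, 6.69 and 8.53 CPM in WT (log2 fold change 1.16, SE 0.24, edgeR adjusted p = 0.0153). The third regulator, MYB76, had a log2 fold change of 1.18 at low levels. None of the 3 regulators overlapped between groups. Side-chain elongation was mixed: MAM3 had 56.9, 64.2 and 69.7 CPM in the libraries labelled RNAi-ASCO, against 37.0, 46.2 and 50.03 CPM in WT (log2 fold change 0.51, SE 0.11, edgeR adjusted p = 0.0203), whereas BCAT4 and MAM1 had log2 fold changes of 0.30 and 0.09 with overlapping groups and did not pass. BAT5, the transporter that brings elongation intermediates into the plastid, had 66.7, 67.8 and 56.9 CPM in the libraries labelled RNAi-ASCO, against 30.7, 30.1 and 37.3 CPM in WT (log2 fold change 0.96, SE 0.13, edgeR adjusted p = 0.00208). The core enzymes were higher throughout. CYP79F2, which turns chain-elongated methionine into aldoximes, had 35.2, 38.6 and 37.2 CPM in the libraries labelled RNAi-ASCO, against 14.3, 15.6 and 15.4 CPM in WT (log2 fold change 1.29, SE 0.093, edgeR adjusted p = 0.000111). CYP79F1, its tandem neighbour, had 123, 120.3 and 94.0 CPM in the libraries labelled RNAi-ASCO, against 58.5, 53.0 and 84.7 CPM in WT (log2 fold change 0.78, SE 0.19, edgeR adjusted p = 0.0271). WT replicate 3 was the highest WT library for CYP79F1 and close to the lowest library labelled RNAi-ASCO, while CYP79F2 was tight in both groups. CYP83A1, the next enzyme, had a log2 fold change of 0.47, and the sulfotransferases SOT17 and SOT18, which finish the core, 0.46 and 0.51. FMO GS-OX1, a side-chain S-oxygenase, had 24.6, 22.6 and 18.7 CPM in the libraries labelled RNAi-ASCO, against 8.74, 7.61 and 11.1 CPM in WT (log2 fold change 1.26, SE 0.18, edgeR adjusted p = 0.00295). Genes called numbered 7 without RNAi-ASCO replicate 1 or WT replicate 1 and 6 without RNAi-ASCO replicate 2. MYB28 lost the call in 4 of the 6 leave-one-out fits (highest edgeR adjusted p = 0.112, without RNAi-ASCO replicate 2), MYB29 in 3 (highest edgeR adjusted p = 0.0638, without RNAi-ASCO replicate 2), MAM3 in 3 (highest edgeR adjusted p = 0.0745, without RNAi-ASCO replicate 2), CYP79F1 in 4 (highest edgeR adjusted p = 0.0976, without RNAi-ASCO replicate 2), SOT17 in 3 and MYB76 in 4.

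**Figure D4:**
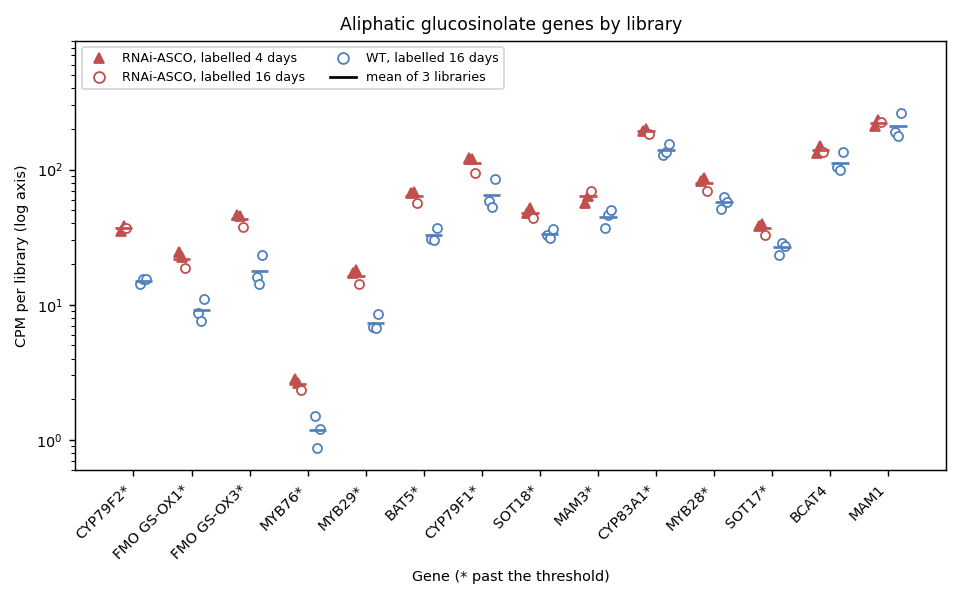
Level of 14 aliphatic glucosinolate genes in each library, in CPM on a log axis, with libraries labelled RNAi-ASCO (red, triangles for 4 days and open circles for 16 days) left of WT (blue) and bars at the means of 3. The groups are apart for the 12 genes marked with an asterisk, and the library labelled 16 days lies on the same side of WT as those labelled 4 days.

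The indole branch and sulfur supply changed in part. Of 18 indole glucosinolate and camalexin genes, 5 rose and 1 fell (33.3% called, median log2 fold change 0.31). The genes that rose included SUR1 (log2 fold change 0.48), UGT74B1 (0.42) and GGP1 (0.27), core enzymes that the aliphatic branch also uses. MYB51, a regulator of the indole branch, had 42.0, 41.7 and 57.1 CPM in the libraries labelled RNAi-ASCO, against 24.0, 28.0 and 25.95 CPM in WT (log2 fold change 0.85, SE 0.14, edgeR adjusted p = 0.00595). The entry enzymes went opposite ways, CYP79B2 with a log2 fold change of 0.37 and CYP79B3 with -0.42, both past the threshold. Of 21 genes of sulfate uptake, assimilation and sulfur limitation, 6 rose and 1 fell (33.3% called), and the median was near that of all genes (0.052). APR1, a key step of sulfate reduction, had 195, 189 and 183 CPM in the libraries labelled RNAi-ASCO, against 101, 96.2 and 109 CPM in WT (log2 fold change 0.89, SE 0.083, edgeR adjusted p = 0.000399). LSU3, which responds to low sulfur, had 14.4, 12.4 and 14.0 CPM in the libraries labelled RNAi-ASCO, against 5.73, 5.47 and 3.84 CPM in WT (log2 fold change 1.45, SE 0.16, edgeR adjusted p = 0.000794). LSU1 (log2 fold change 1.12), LSU2 (0.91), SDI1 (0.77) and SHM7 (0.44) rose as well, and the vacuolar exporter SULTR4;2 fell (-0.39). Sulfur genes called numbered 3 without RNAi-ASCO replicate 1, RNAi-ASCO replicate 3 or WT replicate 1. CYP79B3 lost the call in 2 of the 6 leave-one-out fits, SHM7 in 3, CYP79B2 and LSU1 in 4 and SDI1 and SULTR4;2 in 5.

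Genes of carbon metabolism were called in both directions. Of 27 genes of carbon starvation, starch breakdown and senescence, 8 rose and 2 fell (37.0% called), with a median log2 fold change of -0.02. SEX1, the kinase that opens the starch granule to attack, had 925, 763 and 737 CPM in the libraries labelled RNAi-ASCO, against 521, 570.0 and 569 CPM in WT (log2 fold change 0.55, SE 0.083, edgeR adjusted p = 0.00389). DPE2, which uses the maltose released, had 398, 315 and 324 CPM in the libraries labelled RNAi-ASCO, against 231, 252 and 257 CPM in WT (log2 fold change 0.48, SE 0.088, edgeR adjusted p = 0.00849). PWD (log2 fold change 0.28) and DPE1 (0.23), of the same route, rose by less. ASN1, an asparagine synthetase induced in darkness and sugar shortage, had 3.54, 12.4 and 20.8 CPM in the libraries labelled RNAi-ASCO, against 62.4, 32.1 and 45.7 CPM in WT (log2 fold change -1.88, SE 0.46, edgeR adjusted p = 0.0284). It varied widely among the libraries labelled RNAi-ASCO, and the highest of them, the library labelled 16 days, was still below every WT library. The starvation-induced genes did not share a direction, since DIN9 (0.48) and KMD4 (0.62), an F-box protein, rose, as did SGR1 (0.30) and PAO (0.23), which break down chlorophyll. The other gene that fell was TPS10, a trehalose phosphate synthase-like protein (log2 fold change -0.71). The group's count was 5 without RNAi-ASCO replicate 1, 2 without RNAi-ASCO replicate 2 and 4 without WT replicate 1. ASN1 lost the call in 3 of the 6 leave-one-out fits (highest edgeR adjusted p = 0.102, without RNAi-ASCO replicate 2), PWD and KMD4 in 1, DPE1 and TPS10 in 3, PAO in 4, DIN9 in 5 and SGR1 in 6.

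Mineral nutrition showed small groups of changes. Of 19 phosphate starvation genes, 4 rose and 0 fell (21.1% called, median log2 fold change 0.25). SPX1, a phosphate sensor, had 26.7, 26.9 and 21.8 CPM in the libraries labelled RNAi-ASCO, against 9.77, 11.9 and 11.3 CPM in WT (log2 fold change 1.18, SE 0.15, edgeR adjusted p = 0.00199). The noncoding RNA IPS1 (2.89), the galactolipid synthase MGD3 (1.14) and the acid phosphatase PAP17 (0.84), as log2 fold changes, were the others that rose. The phosphate count was 2 without RNAi-ASCO replicate 1 and 1 without RNAi-ASCO replicate 2, WT replicate 1 or WT replicate 3. Of 24 iron genes, 3 rose, namely NAS4 (log2 fold change 0.96), which makes nicotianamine, the transporter OPT3 (0.80) and the regulator PYE (1.15), a share (12.5%) near that of all genes. The iron count was 0 without RNAi-ASCO replicate 1, 1 without RNAi-ASCO replicate 2, WT replicate 1 or WT replicate 3 and 8 without WT replicate 2. Of 25 nitrate genes, 3 rose and 3 fell (24.0% called). The nitrate transporters NRT1.5 (log2 fold change 0.49) and NRT1.7 (0.47) and the glutamine synthetase GLN1;4 (0.60) rose. Those that fell were ASN1 and the factors HRS1 (-0.84) and LBD39 (-0.54). The nitrate count was 2 without RNAi-ASCO replicate 1, WT replicate 1 or WT replicate 3, 0 without RNAi-ASCO replicate 2 and 3 without RNAi-ASCO replicate 3. NAS4 lost the call in 2 of the 6 leave-one-out fits, NRT1.7 in 3, IPS1, PAP17, OPT3, PYE, NRT1.5, HRS1 and LBD39 in 4, GLN1;4 in 5 and MGD3 in 6.

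Rapidly induced stress regulators had the highest median fold change of the 56 groups, 0.87 on the log2 scale, with 29 of 33 genes positive. The share past the threshold was 27.3%, 9 genes higher and 0 lower. ZAT10, a zinc-finger repressor, had 25.2, 20.6 and 16.6 CPM in the libraries labelled RNAi-ASCO, against 4.52, 4.51 and 5.98 CPM in WT (log2 fold change 2.04, SE 0.43, edgeR adjusted p = 0.0167). ERF104 had 64.7, 22.6 and 53.3 CPM in the libraries labelled RNAi-ASCO, against 9.37, 12.4 and 19.3 CPM in WT (log2 fold change 1.75, SE 0.38, edgeR adjusted p = 0.0186). ERF5, a related ethylene response factor, had 19.0, 16.3 and 14.3 CPM in the libraries labelled RNAi-ASCO, against 8.23, 8.11 and 5.33 CPM in WT (log2 fold change 1.197, SE 0.21, edgeR adjusted p = 0.00796). In ERF104 the libraries labelled RNAi-ASCO varied widely, with replicate 2 close to the highest WT library, whereas ZAT10 and ERF5 were tighter. SZF1 (log2 fold change 1.36), SZF2 (0.67), ERF6 (1.38) and the RING protein ATL2 (0.85) rose too. MYB51 and WRKY33 (log2 fold change 1.13) completed the 9. The number called was 3 without RNAi-ASCO replicate 1, WT replicate 1 or WT replicate 2 and 4 without RNAi-ASCO replicate 2. ZAT10 lost the call in 4 of the 6 leave-one-out fits (highest edgeR adjusted p = 0.0604, without RNAi-ASCO replicate 1), ERF104 in 3 (highest edgeR adjusted p = 0.0695, without RNAi-ASCO replicate 1), SZF1 and SZF2 in 5 and ERF6 and WRKY33 in 6.

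Abiotic stress groups leaned the same way. Of 34 genes of the abscisic acid, drought and cold response, 7 rose and 30 were positive (20.6% called, median log2 fold change 0.31). RD29A, also called LTI78, a cold and drought protein, had 172, 84.0 and 73.9 CPM in the libraries labelled RNAi-ASCO, against 35.9, 37.6 and 43.0 CPM in WT (log2 fold change 1.498, SE 0.27, edgeR adjusted p = 0.00849). Replicate 1 was well above the other libraries labelled RNAi-ASCO, and all of them were above WT. The count in this group was 2 without RNAi-ASCO replicate 1 or WT replicate 1, 3 without RNAi-ASCO replicate 2 and 4 without WT replicate 3. The dehydrins COR47 (log2 fold change 0.34) and ERD10 (0.58) and the galactinol synthase GOLS2 (1.37) rose. Of 24 heat shock genes, 5 rose (20.8% called), the factors HSFA1B (0.40), HSFA8 (0.91) and HSFB2A (0.91) and the chaperone genes HSP70 (0.78) and BAG6 (0.23). The heat count was 2 without RNAi-ASCO replicate 1, RNAi-ASCO replicate 2 or WT replicate 1 and 3 without WT replicate 2. Of 33 phenylpropanoid and flavonoid genes, 7 rose and 0 fell (21.2% called), and 5 of these were MYB factors. MYBL2, a repressor of anthocyanin synthesis, had 34.7, 41.0 and 31.9 CPM in the libraries labelled RNAi-ASCO, against 11.5, 12.9 and 12.04 CPM in WT (log2 fold change 1.56, SE 0.17, edgeR adjusted p = 0.000899). PAP1, an activator of the same pathway, had 2.11, 1.40 and 0.930 CPM in the libraries labelled RNAi-ASCO, against 0.184, 0.328 and 0.261 CPM in WT (log2 fold change 2.398, SE 0.53, edgeR adjusted p = 0.0189), at a low level. Activator and repressor were thus both higher, without overlap between groups. The phenylpropanoid count was 4 without RNAi-ASCO replicate 1 and 3 without RNAi-ASCO replicate 2, WT replicate 1 or WT replicate 3. PAP1 lost the call in 4 of the 6 leave-one-out fits (highest edgeR adjusted p = 0.0666, without RNAi-ASCO replicate 1), ERD10 and HSFB2A in 2, HSFA8 in 3, GOLS2 and HSP70 in 4 and BAG6 in 5.

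Immune receptors changed in both directions. Of 111 TIR and CC NBS-LRR resistance genes, which sense pathogen effectors inside the cell, 22 rose and 7 fell (26.1% called, median log2 fold change 0.14). RPS6, a TIR-type receptor for a Pseudomonas effector, had 126, 116 and 133 CPM in the libraries labelled RNAi-ASCO, against 68.1, 69.4 and 60.2 CPM in WT (log2 fold change 0.92, SE 0.076, edgeR adjusted p = 0.000231). AT4G36150, of the same class, fell, with 12.1, 13.0 and 13.2 CPM in the libraries labelled RNAi-ASCO, against 25.4, 23.7 and 20.4 CPM in WT (log2 fold change -0.86, SE 0.09, edgeR adjusted p = 0.000726). RPP4, a downy mildew resistance gene, had 157, 143 and 165 CPM in the libraries labelled RNAi-ASCO, against 85.6, 84.4 and 93.5 CPM in WT (log2 fold change 0.82, SE 0.11, edgeR adjusted p = 0.00189). RPS6 and RPP4 were higher and AT4G36150 lower in all 3 libraries labelled RNAi-ASCO than in any WT library. Several of these genes stand in tandem: of 7 tested members in the RPP4 and RPP5 cluster on chromosome 4 (AT4G16860 to AT4G16960), 4 rose and 0 fell: RPP4, SNC1 (0.40), RPP5 (0.47) and AT4G16940 (0.80). Of 5 tested members in the RPS6 cluster on chromosome 5 (AT5G46450 to AT5G46520), 3 rose, RPS6, AT5G46490 (0.90) and AT5G46520 (0.42), and 1 fell, AT5G46510 (-0.26). Reads that matched equally well to several copies were removed upstream, per the file headers, so pairs from near-identical stretches may be missing from these counts. The total called was 15 without RNAi-ASCO replicate 2 and 17 without WT replicate 1. AT5G46510 lost the call in 4 of the 6 leave-one-out fits and RPP5 and AT5G46520 in 5.

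At the cell surface, calls also went both ways. The share called was 28.6% for pattern-recognition receptors, 23.1% for receptor-like proteins and 28.6% for wall-associated kinases, against 11.8% of all genes. Of 21 pattern-recognition receptors and co-receptors, 2 rose and 4 fell, with FLS2, the flagellin receptor, at a log2 fold change of 0.22 and the chitin receptor CERK1 at -0.25. LYK5, which binds chitin with CERK1, had 4.13, 4.45 and 5.06 CPM in the libraries labelled RNAi-ASCO, against 6.46, 7.30 and 6.74 CPM in WT (log2 fold change -0.59, SE 0.10, edgeR adjusted p = 0.00711). LYM2, a chitin-binding protein of the plasmodesmata, had 34.9, 29.6 and 29.8 CPM in the libraries labelled RNAi-ASCO, against 42.7, 44.5 and 37.3 CPM in WT (log2 fold change -0.41, SE 0.08, edgeR adjusted p = 0.0122). FER, a receptor kinase for RALF peptides, also fell (log2 fold change -0.27). RLP30, a receptor-like protein, rose, with 18.1, 19.2 and 19.1 CPM in the libraries labelled RNAi-ASCO, against 13.1, 14.0 and 10.6 CPM in WT (log2 fold change 0.58, SE 0.11, edgeR adjusted p = 0.0109). The 52 receptor-like proteins as a family split evenly, 6 higher and 6 lower, with RLP34 at a log2 fold change of -1.30 and RLP54 at 0.39. Of 14 wall-associated kinases, 3 fell and 1 rose (WAKL3, 0.63). WAK1 and WAK2, pectin receptors, and WAKL6 had log2 fold changes of -1.33, -0.74 and -0.50. The number called was 3 without RNAi-ASCO replicate 1 and 2 without RNAi-ASCO replicate 2 for the pattern-recognition receptors. It was 7 without RNAi-ASCO replicate 1 and 5 without RNAi-ASCO replicate 2 or WT replicate 1 for the receptor-like proteins and 2 without RNAi-ASCO replicate 1, RNAi-ASCO replicate 2 or WT replicate 2 for the wall-associated kinases. LYM2 lost the call in 1 of the 6 leave-one-out fits (highest edgeR adjusted p = 0.059, without RNAi-ASCO replicate 2), CERK1 in 2, FER and WAKL6 in 4 and FLS2 and WAKL3 in 5.

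Hormone pathways had calls in both directions. The share called was 30.0% for ethylene, 17.2% for gibberellin and brassinosteroid, 15.2% for jasmonate, 14.8% for cytokinin, 11.1% for auxin and 7.41% for salicylate, against 11.8% of all genes, so that auxin and salicylate were at or under that share and cytokinin and jasmonate near it. Of 20 ethylene genes, 2 rose and 4 fell. Those that rose included the synthesis gene ACS6 (log2 fold change 1.19). The receptors ERS1 (-0.39) and EIN4 (-0.18), the receptor regulator RTE1 (-0.36) and EBF2 (-0.40), which degrades the ethylene factor EIN3, were those that fell. EBF2 had 108, 116 and 122 CPM in the libraries labelled RNAi-ASCO, against 144, 158 and 155 CPM in WT (log2 fold change -0.40, SE 0.064, edgeR adjusted p = 0.00462). Of 33 jasmonate genes, 4 rose, ORA47 (3.43), CYP94C1 (0.69), AOC4 (0.25) and JAR1 (0.20), and 1 fell, LOX6 (-0.23). Of 27 salicylate genes 1 rose (WRKY70, 1.33) and 1 fell (MPK4, -0.21). Of 45 auxin genes, IAA28 (0.43) and ARF6 (0.22) rose, and GH3.3, DFL1 (-0.64) and PIN4 (-0.33) fell. GH3.3, which conjugates auxin, had 10.02, 11.8 and 10.03 CPM in the libraries labelled RNAi-ASCO, against 18.5, 17.0 and 25.4 CPM in WT (log2 fold change -0.93, SE 0.16, edgeR adjusted p = 0.00682). Of 29 gibberellin and brassinosteroid genes, GA3OX2, GA2OX8 (0.56), ROT3 (0.33) and BKI1 (0.32) rose and 1 fell. GA3OX2, which makes active gibberellin, had 6.48, 6.22 and 4.25 CPM in the libraries labelled RNAi-ASCO, against 2.90, 2.63 and 2.36 CPM in WT (log2 fold change 1.11, SE 0.16, edgeR adjusted p = 0.00352). GAI, a repressor of gibberellin responses, fell (log2 fold change -0.35). Among 27 cytokinin genes ARR12 (0.28) rose and ARR1 (-0.22), CKX4 (-0.47) and CYP735A2 (-1.43) fell. The ethylene count was 6 with all libraries and 4 or 5 with any 1 of the 6 libraries left out. Counts in the other hormone groups also depended on single libraries. They were 3 without RNAi-ASCO replicate 1 and 2 without RNAi-ASCO replicate 2 or WT replicate 1 for jasmonate, 1 without RNAi-ASCO replicate 2 or WT replicate 1 and 4 without RNAi-ASCO replicate 3 for salicylate and 2 without RNAi-ASCO replicate 1, 1 without RNAi-ASCO replicate 2 or WT replicate 1 and 3 without WT replicate 3 for auxin. They were 2 without RNAi-ASCO replicate 1 and 1 without RNAi-ASCO replicate 2 or WT replicate 1 for gibberellin and brassinosteroid and 2 without RNAi-ASCO replicate 1 or WT replicate 1 and 0 without RNAi-ASCO replicate 2 for cytokinin. WRKY70, MPK4, ARR12 and CYP735A2 lost the call in 1 of the 6 leave-one-out fits, ERS1, CYP94C1, IAA28 and ROT3 in 2, BKI1 in 3, ARF6, DFL1, GA2OX8, GAI and ARR1 in 4, JAR1, LOX6, PIN4 and CKX4 in 5 and EIN4 in 6.

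Genes of vegetative phase change and flowering time were called in both directions. Of 29 tested, 8 rose and 3 fell (37.9% called), with a median log2 fold change of 0.054. Floral repressors and activators rose together. SVP, a repressor, had 94.5, 101 and 98.7 CPM in the libraries labelled RNAi-ASCO, against 74.0, 75.9 and 78.5 CPM in WT (log2 fold change 0.37, SE 0.053, edgeR adjusted p = 0.00324). TEM2, also a repressor, had 195, 167 and 232 CPM in the libraries labelled RNAi-ASCO, against 77.6, 88.2 and 114 CPM in WT (log2 fold change 1.08, SE 0.20, edgeR adjusted p = 0.00899). CO, the activator of the long-day pathway, had 5.05, 4.89 and 4.32 CPM in the libraries labelled RNAi-ASCO, against 2.53, 2.70 and 2.62 CPM in WT (log2 fold change 0.85, SE 0.13, edgeR adjusted p = 0.0035). The repressors TEM1 (0.93), SNZ (0.53) and TOE2 (0.20) rose as well. Of the SPL genes, which promote the adult phase, SPL9 (0.76) and SPL11 (0.52) rose, whereas SPL4 (-0.86) and SPL13 (-1.22, with a near-identical copy elsewhere) fell, as did FUL (-0.72). The group's median log2 ratio to the WT mean was 0.106 and 0.113 in the libraries labelled 4 days and -0.041 in that labelled 16 days. In the WT libraries it was -0.034, 0.008 and -0.049. Since the group holds repressors and activators alike, its median has no set direction with age and cannot check the age labels. The number called was 6 without RNAi-ASCO replicate 1, 5 without RNAi-ASCO replicate 2 and 7 without WT replicate 1. TEM1 and SPL11 lost the call in 1 of the 6 leave-one-out fits, SPL4 in 2 and SNZ, TOE2, SPL13 and FUL in 4.

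Enzyme families of specialised metabolism contributed many increases. Of 206 cytochrome P450 genes tested, 39 rose and 7 fell (22.3% called, median log2 fold change 0.13). CYP71B24 had 19.4, 19.3 and 19.0 CPM in the libraries labelled RNAi-ASCO, against 3.01, 3.84 and 1.69 CPM in WT (log2 fold change 2.73, SE 0.22, edgeR adjusted p = 0.000194). CYP71B12 (1.52) and CYP71B26 (1.38) rose too. CYP76C1, which oxidises the monoterpene linalool, had 54.9, 49.7 and 41.2 CPM in the libraries labelled RNAi-ASCO, against 25.4, 25.1 and 25.3 CPM in WT (log2 fold change 0.94, SE 0.10, edgeR adjusted p = 0.000725). Of 61 UDP-glycosyltransferases, 18.0% were called: 10 rose and 1 fell (UGT74F2, -0.62). Cell wall families followed. Of 30 xyloglucan endotransglucosylase/hydrolases, which loosen or rejoin wall polymers, 3 fell and 1 rose (XTH32, 0.59). The share called (13.3%) was near the 11.8% of all genes. XTH33 had 0.327, 0.240 and 0.723 CPM in the libraries labelled RNAi-ASCO, against 1.8, 2.405 and 3.23 CPM in WT (log2 fold change -2.48, SE 0.39, edgeR adjusted p = 0.00463). XTH15 had 6.27, 7.79 and 9.18 CPM in the libraries labelled RNAi-ASCO, against 14.8, 15.3 and 17.5 CPM in WT (log2 fold change -1.03, SE 0.24, edgeR adjusted p = 0.0233). Of 22 expansins tested, EXPA16 (-1.12), EXPA7 (-0.47) and EXPA4 (-0.22) fell and EXP3 (0.38) rose, while none of 15 cellulose synthase and wall assembly genes passed. P450 calls numbered 25 without RNAi-ASCO replicate 1, 19 without RNAi-ASCO replicate 2 and 29 without WT replicate 1. Glycosyltransferase calls numbered 4 without RNAi-ASCO replicate 1 or WT replicate 1, 3 without RNAi-ASCO replicate 2 and 7 without WT replicate 3. Calls among the xyloglucan enzymes numbered 1 without RNAi-ASCO replicate 1, RNAi-ASCO replicate 2 or WT replicate 1, and among expansins 0 without RNAi-ASCO replicate 1, 1 without RNAi-ASCO replicate 2, RNAi-ASCO replicate 3, WT replicate 1 or WT replicate 2 and 2 without WT replicate 3. XTH15 lost the call in 4 of the 6 leave-one-out fits (highest edgeR adjusted p = 0.0862, without RNAi-ASCO replicate 1), UGT74F2 in 3, XTH32 in 4, EXPA16 and EXPA7 in 5 and EXPA4 and EXP3 in 6.

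Ribosomal protein genes stood on the other side. Of 126 tested, 15 fell and 0 rose, a share called (11.9%) near that of all genes. Only 16 had a positive fold change, and the median was -0.15 on the log2 scale. AT5G60670, an L11-family protein, had 63.1, 60.7 and 63.0 CPM in the libraries labelled RNAi-ASCO, against 75.6, 73.1 and 76.4 CPM in WT (log2 fold change -0.27, SE 0.047, edgeR adjusted p = 0.00709). AT2G37600, an L36e-family protein, had 48.6, 48.8 and 48.4 CPM in the libraries labelled RNAi-ASCO, against 62.4, 56.5 and 57.5 CPM in WT (log2 fold change -0.27, SE 0.055, edgeR adjusted p = 0.0136). The differences were small beside those of the clock genes, with all 15 called genes between -0.27 and -0.19. The count was 5 without RNAi-ASCO replicate 1 or WT replicate 1, 2 without RNAi-ASCO replicate 2, 9 without RNAi-ASCO replicate 3 and 35 without WT replicate 2. Of 39 proteasome subunits 1 rose, RPN1A (log2 fold change 0.20), a share (2.56%) under that of all genes, and the count was 0 without RNAi-ASCO replicate 1, RNAi-ASCO replicate 2, WT replicate 1 or WT replicate 2. Of 37 cell cycle genes CYCB2;3 (0.30) and SMR1 (0.29) rose and CDKA;1 (-0.19) and CYCA3;2 (-0.21) fell, a share called (10.8%) near that of all genes, and the number called was 0 without RNAi-ASCO replicate 1, RNAi-ASCO replicate 2, RNAi-ASCO replicate 3 or WT replicate 1 and 2 without WT replicate 3. AT2G37600 lost the call in 1 of the 6 leave-one-out fits (highest edgeR adjusted p = 0.0533, without RNAi-ASCO replicate 2), RPN1A in 4, CYCB2;3, SMR1 and CYCA3;2 in 5 and CDKA;1 in 6.

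Splicing and RNA silencing genes were examined because of the gene targeted. Of 30 SR proteins and other splicing regulators, 3 rose and 3 fell, with a median log2 fold change of -0.03. NSRA, NSRB, SMD1A and SMD1B are not among the 30, because RefSeq does not give their loci these names. The list thus leaves out the nuclear speckle RNA-binding proteins NSRA and NSRB, whose levels are not given here. The increases were GRP7, GRP8 and STA1 (0.35), the decreases RSZ21 (-0.26), U2AF35A (-0.25) and RS31 (-0.21). GRP7, which binds RNA and controls splicing of its own transcript, had 2724, 2771 and 2748 CPM in the libraries labelled RNAi-ASCO, against 2085, 2000.2 and 1595 CPM in WT (log2 fold change 0.54, SE 0.11, edgeR adjusted p = 0.0134). Of 35 silencing and DNA methylation genes, 3 rose and 1 fell, a share called (11.4%) near the 11.8% of all genes. AGO3, an Argonaute protein, had 4.13, 4.89 and 6.56 CPM in the libraries labelled RNAi-ASCO, against 2.09, 2.14 and 2.78 CPM in WT (log2 fold change 1.15, SE 0.21, edgeR adjusted p = 0.00822). DCL2 (log2 fold change 0.18) and the histone demethylase IBM1 (0.22) rose and RDR1 (-0.31) fell. Splicing regulators called numbered 3 without RNAi-ASCO replicate 1 and 2 without RNAi-ASCO replicate 2, and silencing genes 1 without RNAi-ASCO replicate 1, RNAi-ASCO replicate 2, RNAi-ASCO replicate 3 or WT replicate 1 and 7 without WT replicate 2. GRP7 lost the call in 1 of the 6 leave-one-out fits (highest edgeR adjusted p = 0.0549, without RNAi-ASCO replicate 2), U2AF35A in 3, RSZ21, DCL2, IBM1 and RDR1 in 5 and RS31 in 6.

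Shares called were also counted by annotated type. Of 279 tested gene models that RefSeq annotates as pseudogenes, 46 rose and 14 fell (21.5%, against 11.8% of all genes). Of 288 annotated as transcribed pseudogenes, 8 rose and 7 fell (5.21%), and 9 were called without RNAi-ASCO replicate 1. Of 190 long noncoding RNA genes, 17 rose and 15 fell (16.8%), and the long noncoding count was 17 without RNAi-ASCO replicate 1, 14 without RNAi-ASCO replicate 2 and 19 without WT replicate 1. The largest increases included 3 pseudogenes, AT3G29634, AT1G31570 and AT2G05280. AT2G05280 had 7.79, 6.92 and 6.82 CPM in the libraries labelled RNAi-ASCO, against 0.992, 0.562 and 0.660 CPM in WT (log2 fold change 3.37, SE 0.21, edgeR adjusted p = 5.59e-05). MRD1, a gene named for its lower level in a methionine-overaccumulating mutant, had 28.3, 25.8 and 29.4 CPM in the libraries labelled RNAi-ASCO, against 0.0370, 0.593 and 0.452 CPM in WT (log2 fold change 5.96, SE 0.53, edgeR adjusted p = 0.000315), which for WT replicate 1 is 1 pair. AT3G54160, an RNI-like protein, had 11.8, 10.3 and 11.8 CPM in the libraries labelled RNAi-ASCO, against 0.808, 1.12 and 0.764 CPM in WT (log2 fold change 3.60, SE 0.16, edgeR adjusted p = 1.03e-05). In these 3 genes the libraries labelled RNAi-ASCO were close together, and the library labelled 16 days lay within or next to the range of those labelled 4 days. ORA47, a jasmonate-responsive factor, had 5.23, 6.81 and 1.88 CPM in the libraries labelled RNAi-ASCO, against 0.367, 0.297 and 0.625 CPM in WT (log2 fold change 3.43, SE 0.67, edgeR adjusted p = 0.012), the library labelled 16 days being lowest of its group. MRD1 and ORA47 overlap annotated genes on the opposite strand, and the strand handling of the counts is not stated. Among the largest decreases, AT4G12500 and AT4G12490, neighbouring lipid-transfer protein genes, had log2 fold changes of -3.97 and -3.72. AT4G12500 had 0.149, 0.109 and 0.138 CPM in the libraries labelled RNAi-ASCO, against 0.808, 1.02 and 4.29 CPM in WT (log2 fold change -3.97, SE 0.71, edgeR adjusted p = 0.00804). WT replicate 3 was several times the other WT libraries, which themselves were above the libraries labelled RNAi-ASCO. AT5G38930, a cupin protein, had 1.04, 0.983 and 1.05 CPM in the libraries labelled RNAi-ASCO, against 5.07, 3.56 and 4.00 CPM in WT (log2 fold change -2.02, SE 0.18, edgeR adjusted p = 0.000348). XTH25 had 0.208, 0.655 and 0.723 CPM in the libraries labelled RNAi-ASCO, against 5.73, 3.87 and 2.397 CPM in WT (log2 fold change -2.81, SE 0.71, edgeR adjusted p = 0.0321). The cupin gene was tight in both groups, while XTH25 varied in both. XTH25 lost the call in 5 of the 6 leave-one-out fits (highest edgeR adjusted p = 0.107, without RNAi-ASCO replicate 1) and AT4G12490 in 1.

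**Figure D5:**
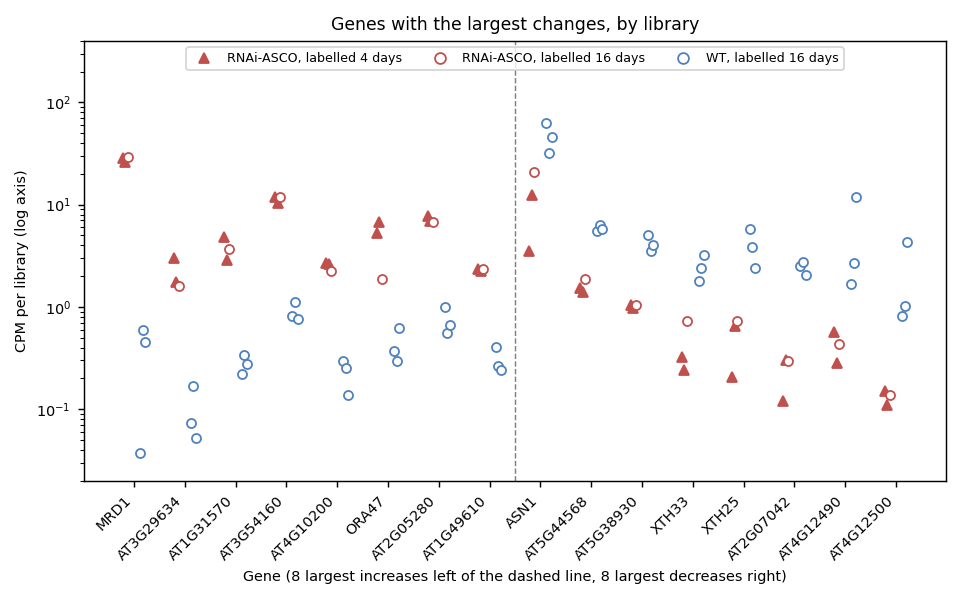
Level of the 8 genes with the largest increases and the 8 with the largest decreases, in CPM on a log axis, with libraries labelled RNAi-ASCO (red, triangles for 4 days and open circles for 16 days) left of WT (blue). The rule took only genes whose groups do not overlap. The library labelled 16 days lies with those labelled 4 days in MRD1, AT3G54160 and AT2G05280 but below them in ORA47.

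Since the age label differs within the RNAi-ASCO group, both subsets were set against WT. With the library labelled 16 days alone, 89 genes were higher and 14 lower, and with the libraries labelled 4 days alone 1258 were higher and 827 lower. The single library labelled 16 days has no spread of its own and was assumed to vary like the other groups, so the numbers of calls are not compared between the subsets. Both subsets were set against the same 3 WT libraries, and the medians of log2 fold changes are given side by side. The clock median was 0.61 with the library labelled 16 days and 0.63 with those labelled 4 days. For aliphatic glucosinolate genes the medians were 0.58 and 0.74 in that order, for photosystem genes 0.20 and 0.27, and for ribosomal protein genes -0.14 and -0.15. Resistance genes had 0.23 and 0.085. Phase change genes had -0.036 and 0.12, and pattern-recognition receptors 0.071 and -0.056, of opposite sign. For the libraries labelled 4 days, age and genotype cannot be told apart as the labels stand.

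The libraries labelled RNAi-ASCO were also tested directly against 35S-ASCO, a comparison that shares these 3 libraries with the one against WT. In that test 6.75% of genes passed. Against WT, the median log2 ratio of mean levels in 35S-ASCO was 0.43 for clock genes and 0.46 for aliphatic glucosinolate genes. It was 0.784 for rapidly induced stress regulators and 0.536 for the abscisic acid, drought and cold group. For photosystem genes it was 0.097, and for all genes -0.007. Positive medians in these groups were thus not confined to the libraries labelled RNAi-ASCO, though 35S-ASCO was not tested against WT. Of 28 clock genes, 3 were higher in the libraries labelled RNAi-ASCO than in 35S-ASCO and 0 lower. GI stood at 40.4, 32.5 and 27.0 CPM in 35S-ASCO (edgeR adjusted p = 0.0134). Of 14 aliphatic glucosinolate genes, 3 were higher, CYP79F2 among them (35S-ASCO 19.9, 22.4 and 16.9 CPM, edgeR adjusted p = 0.000576). Of 111 resistance genes, 13 were higher and 3 lower, RPS6 standing at 89.1, 84.9 and 78.4 CPM in 35S-ASCO (edgeR adjusted p = 0.0027). RPP4, SNC1 and RPP5 did not differ detectably from 35S-ASCO (edgeR adjusted p = 0.581, 0.62 and 0.835), whereas AT4G16940 did (edgeR adjusted p = 0.0294). Of 33 jasmonate genes 12 were lower in the libraries labelled RNAi-ASCO and 0 higher, and of 21 sulfur genes 6 were lower and 0 higher. CYP71B24 did not differ detectably between these lines (35S-ASCO 16.1, 18.0 and 16.2 CPM, edgeR adjusted p = 0.585), nor did PRR7 (54.5, 39.4 and 32.7 CPM, edgeR adjusted p = 0.372). MRD1 did, at 0.340, 0.0560 and 1.13 CPM in 35S-ASCO (edgeR adjusted p = 0.00032). Of the 8 largest increases and 8 largest decreases, all differed from 35S-ASCO but AT4G12500, AT4G12490, XTH33 and ORA47. For these the edgeR adjusted p was 0.611, 0.393, 0.0903 and 0.477.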

How the data were processed

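Poly(A) RNA of 9 seedling samples was sequenced in pairs from stranded libraries, per the labels' protocols. The authors deposited counts of read pairs per gene model, 1 table per sample, and per the file headers reads that aligned equally well to several places were removed and singletons were treated as unmapped. TopHat2, Bowtie2 and the TAIR10 build are named in the submitters' processing notes, with no role given. Paired reads were used here without merging models.

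All 9 libraries entered 1 edgeR 4.0.16 quasi-likelihood fit in R 4.3.3, with TMM scaling, edgeR's filter on low counts by group, contrasts of group means and Benjamini-Hochberg adjustment over 22719 genes. A gene was called at an adjusted p under 0.05. SE is that of the log2 fold change. On simulated counts for this comparison (22586 genes kept), 62 of 67 genes changed by 1 on the log2 scale were recovered, and 40 of 66 changed by 0.5. All 67 genes changed by 1.5 were recovered, and 15 unchanged genes were called falsely. Between replicates the variance was 7.94 to 41.4 times that of sampling, so no libraries were treated as duplicates. The precision of low values is limited by depth, and a level of 3 pairs covers counting error only.

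Gene groups were 33 lists and 23 families. Of 819 list entries, 18 were left out because RefSeq did not give the locus that name. Among them were RVE6 and CDF5 of the clock and UGT74C1 and IMDH1 of aliphatic glucosinolate synthesis. Members, lists and naming rule were chosen with earlier results of these data known, and 37 unrelated pattern matches were removed from the families after values had been seen. The rule named AT1G67105 and the 8 largest increases and decreases with mean levels of 1 CPM or more and no overlap between groups. In each list it named the 3 called members with the smallest p, or 1 where fewer than 5 were called. Other genes named in the text were picked from their lists after values were seen. Alternatives were RLE and upper-quartile scaling, DESeq2 1.42.0, other filters and thresholds, the 6 libraries alone, a replicate block, single-read counts, the library labelled 16 days alone and leaving out each library. Sequences and positions are from RefSeq TAIR10.1.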

Additional observations from a re-analysis of the deposited data

How the results depend on the processing

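The count of 2677 genes was 2663 with RLE scaling, 2729 with upper-quartile scaling, 3314 with DESeq2, 2464 without a filter, 2712 with a 1 CPM filter, 2269 from the 6 libraries alone and 2713 on single reads. It was 791 at an adjusted p under 0.01, 394 where the log2 fold change also had to reach 1 in size, and 103 with the library labelled 16 days alone, each smaller by construction. Leaving out a library gave 993 to 2282. The log2 fold change of AT1G67105 stayed past the threshold in all 17 alternatives, between 2.06 and 2.67. With the replicate block the count was 2438, and 5 of 56 group counts moved by over 1.5 times. Of the genes picked by the naming rule or named in the text, 21 lost and 2 gained a call with the block. Among expansins the block gave 3 higher and 1 lower, against 1 and 3 without it. The numbers were not taken to pair the libraries, since the correlations of same-numbered deviations were -0.0113, 0.0394 and -0.0113, and no library correlated best with its own number. Over all alternatives, 605 group counts stayed within 1.5 times and 347 did not. Genes picked by the naming rule or named in the text stayed on their side of the threshold 3068 times, lost a call 988 times and gained one 6 times. No called gene among them changed direction. Among uncalled genes, the log2 fold changes of LHY, RVE4 and RVE8 were 0.09, 0.001 and 0.037 with the library labelled 16 days alone, and leaving out a library gave -0.114 to 0.039 for LHY, -0.163 to 0.009 for RVE4, -0.142 to 0.013 for RVE8 and -0.02 to 0.276 for MAM1. Median fold changes of pattern-recognition receptors, salicylate genes and proteasome subunits, all near 0, turned negative with upper-quartile scaling. Single-sample outliers were not tested for, since groups of 3 are too small for it. Depth limits genes near 3 pairs, and the age labels, the hour of harvest and the state of the targeted transcript limit every comparison.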
